A study of Homo sapiens with 72 samples.

Results

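Translation was blocked with cycloheximide in A375 cells in which transcription was also blocked, and the mRNAs still present after 5 h were compared with those left when transcription alone was blocked. The 8 libraries compared are those of 5 h in both control states of the study, replicates 1 and 2, of 72 libraries in all. Replicate 3 was left out of the comparison because its 5 h libraries stood apart from the others, and it is described on its own near the end. A375 is an established human melanoma line. The control states were cells transfected for 42 h with siGL2, a control siRNA against luciferase, and cells kept for 18 h in fresh medium with glutamine (pQ). Cells of every group received triptolide (25 µM). The T arm received triptolide alone, and the TCHX arm received triptolide with cycloheximide (100 µg/ml). Cells were harvested at 0, 3 or 5 h, and cytoplasmic RNA was sequenced from its 3′ ends with the QuantSeq kit. The other conditions of the series, siCTU2 and medium without glutamine (mQ), were used only to look at the chosen mRNAs again. The 4 T and 4 TCHX libraries at 5 h came from a single cell line, and no label says whether replicates were separate cultures, so p-values measure only the spread between these libraries.

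Triptolide stops RNA polymerase II, so that an mRNA level measured hours later reflects what was there at the start and how fast it was degraded. Cycloheximide stops ribosomes during elongation and leaves them on the mRNA. Many short-lived mRNAs are degraded while they are being translated, through codon-dependent decay, nonsense-mediated decay or elements of the 3′ UTR, and such mRNAs are classically kept when translation is blocked. Messages for immediate early proteins, cell cycle regulators and signalling proteins are the best known examples.

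The 5 h libraries held 8948910 to 14740736 counts. Between replicates 1 and 2, log counts correlated with r from 0.985 to 0.99 in the 12 control groups, and with replicate 3 at 5 h r was between 0.943 and 0.963. Libraries were scaled to 330 stable genes, and levels are given as normalised counts, which are counts divided by that scale. The libraries held the melanocyte lineage mRNAs MITF, SOX10, S100B and DCT, whereas PMEL, MLANA, TYR and TYRP1 were near 0, at no more than 5.33 CPM, a count scaled to the library total. The 8 lineage markers summed to 541 to 668 CPM in the T arm and 799 to 982 CPM in the TCHX arm at 5 h, and 8 markers of dedifferentiated melanoma to 4712 to 4928 and 4169 to 5078 CPM. Most of the second sum was VIM (3326 to 4201 CPM) and CD44 (519 to 661 CPM). SOX9 was at 46.3 to 106 CPM in T and 173 to 425 in TCHX libraries, and FOSL1 at 7.75 to 22.9 and 48.5 to 120. The arms of both were thus separate, whereas AXL was at 26.0 to 53.9 in T and 30.5 to 46.4 in TCHX libraries. S100A4 was at 20.1 to 25.9 CPM, NGFR at no more than 8.47 and EGFR at no more than 4.25. Of the markers of other cells, 1 of 6 fibroblast, 2 of 7 epithelial and 3 of 6 immune genes were at 0 in all 8 libraries. The sums were 3.28 to 12.2 CPM for fibroblast, 115 to 201 CPM for epithelial markers, nearly all of it KRT18, and 6.10 to 12.8 CPM for immune markers. The part of these differences in the results below was not tested.

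At 5 h, 2579 of 13052 tested genes were higher in the TCHX arm (19.8%) and 184 were lower (1.41%), by edgeR's quasi-likelihood test with Benjamini-Hochberg adjustment at 0.05. At 3 h the same test called 1718 of 12799 genes higher (13.4%) and 52 lower (0.406%). At 0 h edgeR called 0 of 12843 genes, with 333 at an unadjusted p under 0.05. A library is bulk RNA, so fewer cells and less RNA per cell cannot be told apart. The split between higher and lower depended on the scale. With TMM factors the median difference of all genes at 5 h moved from 0.10 to −0.02 on the log2 scale, and the calls became 2027 higher and 1097 lower. List counts given below with TMM factors stand beside these totals, not beside 19.8% and 1.41%. The share of calls that were higher was 93.3% with stable genes and 64.9% with TMM at 5 h, and 97.1% and 75.1% at 3 h. Without replicate 2, 1611 genes were higher at 5 h and 963 at 3 h.

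Late retention was defined as a TCHX minus T difference that was larger at 5 h than at 3 h by a test of that change, in an mRNA that was also higher in the TCHX arm at 5 h. A fit over the 16 libraries of 3 h and 5 h called 294 of 13528 genes larger at 5 h (2.17%) and 26 smaller (0.192%), and 291 of the 294 met the definition of late (2.15%). The other 3 were PFDN5 and RPA4, which were not called at 5 h, and ZNF528, which was not tested there. Over the 291 late mRNAs the median TCHX minus T difference was 0.69 at 3 h and 1.66 at 5 h on the log2 scale, beside 0.10 over all genes at 5 h. All 291 were higher in the TCHX arm in all 4 same-numbered pairs of 5 h libraries. So were 3866 of the 13052 genes tested at 5 h, and 1179 of the 1202 mRNAs called higher at both times without being late. In 287 of the 291 late mRNAs the 4 TCHX libraries lay above all 4 T libraries, as they did for 17.3% of all tested genes. AMMECR1L, CDKN2C, SNAR-G1 and SQSTM1_1 overlapped. These values describe the class, since they also chose it. Just inside the threshold lay MEPCE with a change of 0.59 (adjusted p = 0.0485), PIM3 with 0.60 (0.0485) and C12orf45 with 0.66 (0.0499). Just outside it lay GTF2B with 0.93 (0.0509), ZW10 with 0.49 (0.0512) and ZZZ3 with 0.62 (0.0512). With 1 of the 16 libraries left out, 223 to 297 mRNAs were late, and 171 of the 291 kept a called change each time. Without replicate 1 the number was 144, without replicate 2 it was 148, and with replicate 3 put back it was 103.

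The change lay mainly in the T arm. From 3 h to 5 h, 286 of the 291 late mRNAs fell in the T arm, where 16.2% of all genes fell, and 54 fell in the TCHX arm, where 6.77% did. Relative to 0 h of the same arm, the median late mRNA was at 45.0% at 3 h and 19.3% at 5 h in T cells, and at 73.2% and 64.9% in TCHX cells. The 1202 mRNAs that were higher at both times without being late stood at 47.7% and 30.4% in T cells and at 62.1% in TCHX cells at 5 h. The late class and this larger class thus had similar medians at 3 h in T cells, and the late class was further down in the T arm at 5 h. The late class was chosen in these same libraries by its change in the TCHX minus T difference. A lower T level at 5 h and falls in the T arm therefore follow in part from that choice. Uncalled genes were at 74.6% in T and 75.4% in TCHX at 5 h.

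**Figure D1:**
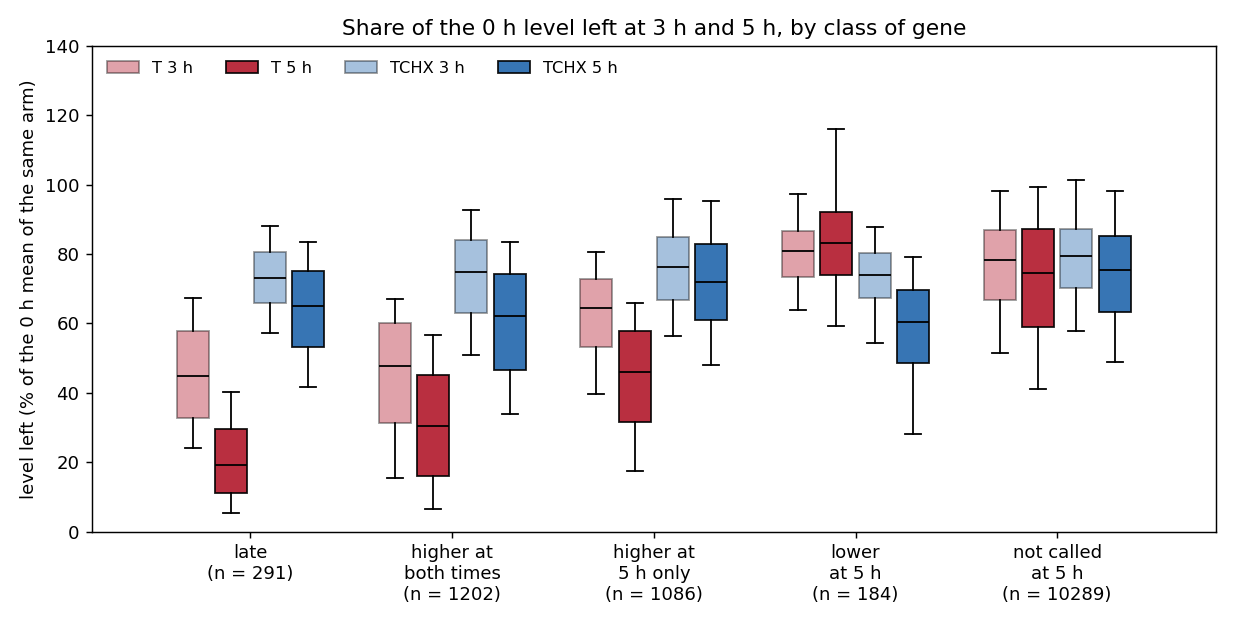
Percent of the 0 h level left in each arm at 3 h and 5 h (vertical axis, percent of the mean normalised count at 0 h of the same arm), by class of gene; boxes are quartiles over genes, with the median as a line, and whiskers run from the 10% to the 90% quantile. The late class had a median of 19.3% left in T cells at 5 h and of 64.9% in TCHX cells.

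Late did not mean absent at 3 h. Of the 291 late mRNAs, 239 were already called higher at 3 h and 52 were not. A difference that grows in proportion to time would be 5/3 as large at 5 h as at 3 h, and a test against that size, chosen after the data were seen, called 2 of 13528 genes larger (0.0148%), POP7 and SOX10, and 6 smaller. The excess over proportion was 0.83 ± 0.16 (SE) for POP7 and 0.70 ± 0.14 for SOX10 on the log2 scale, each with an edgeR adjusted p of 0.0397. Both calls were unstable, since the number of genes called larger ran from 0 to 5 when 1 of the 16 libraries was left out. It was 0 without any 1 of 11 of them, among them the siGL2 T replicate 1 library at 3 h, where the adjusted p was 0.0625 for POP7 and 0.0759 for SOX10.

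**Figure D2:**
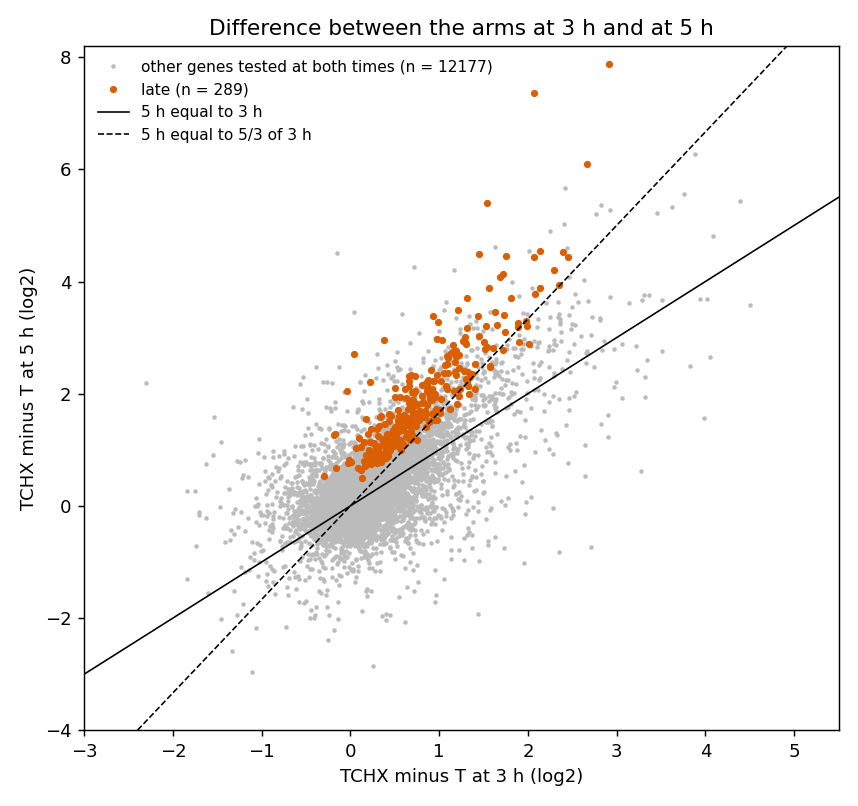
Difference TCHX minus T at 3 h (horizontal) and 5 h (vertical), both log2, for each gene tested at both times; late mRNAs are coloured and the lines mark equal differences and 5/3 of the 3 h difference. The 289 late mRNAs with a 3 h value lie above the line of equal differences because that chose them, and the same choice raises the share above the 5/3 line, 94.1%.

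The 10 late mRNAs with the largest change between the times and at least 50 counts in the TCHX arm were RPP38, RAB20, TRAF6, TIFA, FADD, NR1D1, EFNA1, THAP3, EPHB3 and AUNIP. Their coding sequences differed in base composition. The first codons after the start codon are shown for FADD and TRAF6, which stand at the high and low ends of the 10 in the share of codons ending in G or C, with the last base of each codon in capitals (codons 2 to 11, GENCODE v44 annotation on GRCh38).
FADD: gaCccGttCctGgtGctGctGcaCtcGgtG
TRAF6: agTctGctAaaCtgTgaAaaCagCtgTggA
In FADD 10 of these 10 bases are G or C, and 80.8% are over the whole coding sequence. In TRAF6 the numbers are 4 of 10 and 44.6%. FADD lies on the plus strand at chr11:70203296-70207390 and TRAF6 on the minus strand at chr11:36483769-36510272.

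FADD, the adaptor that links death receptors to caspase-8, had the smallest adjusted p of the 10. At 5 h it was at 21.7, 26.9, 6.2 and 35.4 normalised counts in the T libraries (siGL2 replicates 1 and 2, then pQ replicates 1 and 2, an order kept below). In the TCHX libraries it was at 570.9, 675.1, 430.7 and 423.2. At 3 h the T libraries had still held 177.9, 224.4, 123.8 and 133.4, and the TCHX libraries 751.7, 809.0, 701.7 and 599.7. The arms did not overlap at either time, and the T arm had started at 983.9, 978.1, 752.7 and 895.8. The TCHX minus T difference was 2.14 ± 0.12 (SE, n = 4 libraries per arm) on the log2 scale at 3 h and 4.54 ± 0.24 at 5 h, and its change was 2.40 ± 0.28 (adjusted p = 3.78e-06). In percent of 0 h, FADD mRNA was at 2.5% in T cells and 54.6% in TCHX cells at 5 h.

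TRAF6 and TIFA encode proteins of innate immune receptor signalling. TRAF6, a ubiquitin ligase of Toll-like and interleukin-1 receptor signalling, was at 1.0, 6.3, 0.8 and 2.7 normalised counts in T libraries at 5 h and at 65.7, 58.7, 41.8 and 75.2 in TCHX libraries. At 3 h it was at 15.7 to 24.8 in T and 55.9 to 72.3 in TCHX libraries. The TCHX arm thus stayed near its 3 h level, and the change between the times was 2.70 ± 0.55 (adjusted p = 0.00433). TIFA, which binds TRAF6 and promotes its oligomerisation, was at 4.1, 7.2, 6.2 and 11.5 in T and at 64.4, 77.6, 85.8 and 78.7 in TCHX libraries at 5 h. Its difference was 0.94 at 3 h and 3.39 at 5 h, a change of 2.45 ± 0.43 (adjusted p = 0.000844). For these mRNAs the T libraries held only a few counts at 5 h, with 1, 7, 1 and 3 reads of TRAF6, so the size of the fitted difference rests on the low arm.

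RPP38, a protein of the tRNA-processing RNase P and of RNase MRP, had the largest change of the 10 and was the only one of them whose call was lost when 1 library was left out. Its 4 T libraries at 5 h held 0, 0, 4 and 0 reads against 91, 90, 95 and 68 in the TCHX libraries. At 3 h it was at 26.7, 8.4, 9.9 and 3.2 normalised counts in T and at 71.3, 77.3, 81.5 and 70.9 in TCHX libraries. The fitted difference was 2.67 at 3 h and 6.10 ± 0.60 at 5 h and depends on how zeros are treated, and the change of 3.40 ± 0.84 had an adjusted p of 0.0228. It became 6.65 without pQ T replicate 1 at 5 h, the library with the 4 reads. The call was lost without any 1 of 6 libraries, with 2.73 (adjusted p = 0.0908) as the lowest value, without siGL2 T replicate 1 at 3 h. The others were siGL2 T replicates 1 and 2 and pQ T replicate 2 at 5 h, and siGL2 TCHX replicates 1 and 2 at 3 h, with adjusted p from 0.0528 to 0.0603. Over all 30 alternatives to the main fit, RPP38 lost the call in 11, and RAB20, TRAF6 and NR1D1 in 3 each. EPHB3 lost it in 2, EFNA1, TIFA and THAP3 in 1 each, and FADD and AUNIP in none.

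The remaining named late mRNAs showed the same arrangement of arms. RAB20, a small GTPase of endosomes and phagosomes, was at 3.1, 5.4, 0 and 2.7 in T and 70.2, 63.9, 70.9 and 40.4 in TCHX libraries at 5 h, with a change of 3.03 ± 0.53 (adjusted p = 0.000844). EFNA1, a membrane-bound ligand of Eph receptors, was at 16.5, 9.0, 3.9 and 8.8 in T and 154.7, 86.0, 112.7 and 123.9 in TCHX libraries. EPHB3, a receptor tyrosine kinase of that family, was at 5.2, 12.5, 1.6 and 5.3 and at 105.3, 210.7, 106.0 and 100.9. In EFNA1 and EPHB3 alike, no T library reached the lowest TCHX library. NR1D1 (REV-ERBα), a nuclear receptor of the circadian clock, was at 1.8 to 4.7 in T and 48.8 to 61.2 in TCHX libraries. THAP3, a zinc finger protein, was at 3.1 to 10.9 and 89.1 to 110.5. AUNIP, a partner of Aurora A that also acts in DNA end resection, was at 9.3 to 14.7 and 124.7 to 201.3. Their changes from 3 h to 5 h lay between 2.33 and 2.40 on the log2 scale, with 2.33 ± 0.31 for AUNIP (adjusted p = 3.06e-05) the most precise. EPHB3 changed by 2.35 ± 0.44 and EFNA1 by 2.38 ± 0.39.

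**Figure D3:**
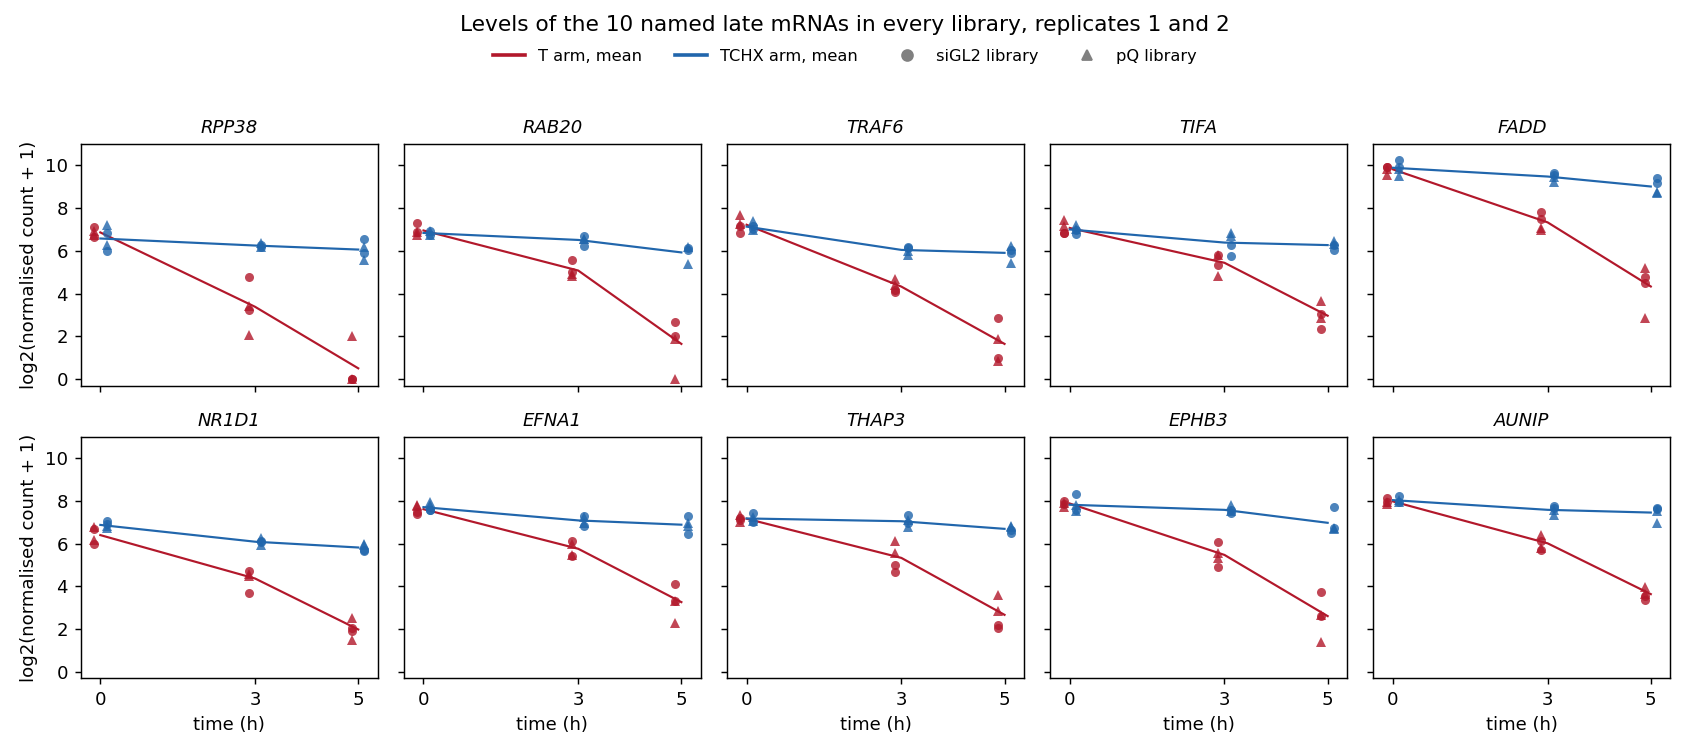
Normalised counts (vertical axis, log2 with 1 added) of the 10 named late mRNAs in each of the 24 control libraries of replicates 1 and 2 at 0, 3 and 5 h (horizontal axis, hours), with T and TCHX libraries in different colours and lines through the means. The T libraries of FADD drop from a range of 123.8 to 224.4 at 3 h to one of 6.2 to 35.4 at 5 h, and its lowest TCHX library at 5 h is at 423.2.

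Abundant late mRNAs had smaller errors. SOX10, the transcription factor that specifies the melanocyte lineage, was at 1343.8, 1393.4, 1115.7 and 1133.4 normalised counts in T libraries at 3 h and 404.8, 494.2, 373.8 and 403.2 at 5 h. In TCHX libraries it was at 2598.8, 2826.3, 2221.4 and 2179.6 at 3 h and 2343.2, 2251.6, 1879.5 and 1992.3 at 5 h. The T arm lost most of what remained in those 2 hours, with a fall of 1.57 on the log2 scale, whereas the TCHX arm changed by −0.21 (adjusted p = 0.0607). The difference was 0.98 ± 0.07 at 3 h and 2.33 ± 0.09 at 5 h, and its change was 1.36 ± 0.10 (adjusted p = 2.95e-09). SOX10 is one of the lineage markers above, and its own levels contribute to the higher marker sum of the TCHX arm. SOX9, a related factor of neural crest and dedifferentiated melanoma cells, had 1.24 at 3 h and 2.09 at 5 h, a change of 0.85 ± 0.14. In SOX9 both arms fell between the times, by 1.49 in T and by 0.64 in TCHX.

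POP7, another protein of RNase P and RNase MRP, was at 1217.4, 1261.3, 1365.2 and 1447.1 in T libraries at 3 h and 436.8, 586.5, 504.9 and 627.0 at 5 h. The TCHX libraries went from 1698.5, 1763.6, 1891.7 and 1909.0 to 1651.4, 1575.5, 1634.7 and 1650.5. The TCHX arm was nearly level, with a change of −0.16 (adjusted p = 0.331). The difference was 0.46 ± 0.07 at 3 h and 1.60 ± 0.10 at 5 h, a change of 1.14 ± 0.12 (adjusted p = 5.6e-07). Of the 9 RNase P and MRP proteins tested, 4 were higher at 5 h (19.8% of all genes were) and 2 were late, RPP38 and POP7 (2.15% of all genes were); the family was looked up after those values were seen.

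DUSP4, a phosphatase that inactivates ERK in the nucleus, was at no more than 383.2 in the 4 T libraries and at 1537.7, 1512.6, 1542.8 and 1596.2 in TCHX libraries at 5 h. Its difference went from 0.86 to 2.17, a change of 1.32 ± 0.12 (adjusted p = 8.48e-08). XBP1, the transcription factor activated by IRE1 in the unfolded protein response, was at 57.8, 69.8, 92.3 and 107.0 in T and 324.4, 355.3, 412.0 and 428.8 in TCHX libraries. Neither mRNA overlapped between arms, and XBP1 changed from 0.66 to 2.23, by 1.57 ± 0.17 (adjusted p = 1.41e-06). TRIM11, a ubiquitin ligase, went from 1.81 to 3.71, PHF23, a PHD finger protein, from 1.63 to 3.45, and KLHL21, a Cullin-3 adaptor of mitosis, from 1.65 to 3.22. The chaperone regulator BAG5 went from 0.69 to 2.33.

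The 52 late mRNAs not called at 3 h are those in which retention was seen at 5 h alone. Their median difference was 0.22 at 3 h and 1.08 at 5 h, 2 of them were not tested at 3 h, and 7 of the other 50 had a value below 0 there. FZR1 (CDH1), the activator of the anaphase-promoting complex in G1, was at 189.7, 163.6, 203.0 and 207.0 in T and 201.0, 225.8, 225.4 and 315.3 in TCHX libraries at 3 h. At 5 h it was at 67.1, 72.5, 86.9 and 113.2 in T and 241.2, 203.4, 281.4 and 299.3 in TCHX libraries. The arms overlapped at 3 h, where the lowest TCHX library of FZR1 was under the highest T library, and were separate at 5 h. The difference was 0.34 ± 0.14 (adjusted p = 0.117) at 3 h and 1.60 ± 0.15 (adjusted p = 4.09e-08) at 5 h. TBP, the TATA-binding protein, went from 0.33 to 1.59, and HEXIM2, an inhibitor of the elongation factor P-TEFb, from 0.51 to 2.10. CXXC5, a CpG-binding regulator of Wnt signalling, went from −0.03 to 0.77. A pair of cell cycle regulators belonged to the same group, CCNF (cyclin F, from 0.22 to 1.14) and DTL (the CDT1-targeting ubiquitin ligase adaptor, from 0.23 to 0.95). These examples were chosen after their values were seen. A missing call at 3 h is not a difference of 0, and the test of the change between times is what makes these mRNAs late.

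A few late RNAs did not follow this pattern. CYB5D2 and RN7SL832P rose in the T arm between 3 h and 5 h, where 0.872% of all genes did, and BCYRN1, SNAR-G1 and SQSTM1_1 had no called change there. The same 5 rose in the TCHX arm, where 0.584% of all genes did. The late call was lost without any 1 of 11 libraries for CYB5D2, of 8 for RN7SL832P and of 10 for SQSTM1_1. BCYRN1 (BC200) and SNAR-G1 are transcribed by RNA polymerase III and not by RNA polymerase II. BCYRN1 was at 2254.2, 2016.4, 2663.4 and 2547.7 in T and 3286.0, 4332.3, 4687.5 and 4297.2 in TCHX libraries at 5 h, with a difference of 0.81 ± 0.08. For these 2 RNAs the change between the times was not called by DESeq2 (BCYRN1 adjusted p = 0.0733 and SNAR-G1 adjusted p = 0.113 with stable-gene factors), and for SNAR-G1 it was lost without any 1 of 9 libraries (0.53, adjusted p = 0.117 without pQ TCHX replicate 1 at 3 h). SQSTM1_1 is the name of an extra copy of a gene, so its reads may be shared with that gene, and CTDP1 has such a copy. Another 6 late mRNAs with under 50 counts in TCHX libraries at 5 h, RHOH, RGS16, RGS2, HASPIN, ZBED8 and ANGPTL4, have sizes that rest on few reads.

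Of the pathway lists, gene families aside, those of immediate early and ERK feedback genes had the highest medians. Among 17 tested ERK feedback genes 10 were higher at 5 h and 10 at 3 h, with medians of 1.09 and 0.86 beside 0.10 and 0.09 for all genes. Of all genes, 19.8% were higher at 5 h, 13.4% at 3 h, and 2.15% were late. DUSP4 and PHLDA1 were late, and PHLDA1, a proapoptotic nuclear protein, went from 1.98 to 3.30. DUSP6, the cytoplasmic ERK phosphatase, was at 4.50 at 3 h and 3.58 at 5 h and was not late. Among 26 immediate early genes 17 were higher at 5 h and 22 at 3 h, with medians of 1.64 and 1.52. BTG1, an antiproliferative adaptor of the CCR4-NOT deadenylase, and ZFP36L2, which binds AU-rich elements, were late (0.89 to 1.98 and 0.76 to 1.62). IER2 and IER5 went the other way, as described below. With TMM factors 8 ERK feedback genes were higher and 1 lower, and 16 immediate early genes were higher and 1 lower.

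Of the 13 NF-kB feedback genes 4 were higher at 5 h, beside 19.8% of all genes, and NFKBIE, an inhibitor that holds NF-kB in the cytoplasm, was late (0.61 to 2.08, a change of 1.47 ± 0.28). In 17 genes of the ATF4 stress response 9 were higher at 5 h and 10 at 3 h, where 13.4% of all genes were. TRIB3, a pseudokinase that restrains ATF4 and AKT signalling, was late (0.56 to 1.53). ATF4 itself was at 0.87 and 1.08 and was not late. TMM gave 9 genes of this list higher and 2 lower. The TRAF adaptors, looked up after TRAF6 was seen, had 5 of 7 members higher at 5 h and a median of 1.18, with TRAF2 late (0.94 to 2.23, a change of 1.30 ± 0.21) and TRAF1, TRAF4 and TRAF5 called at 5 h alone without a called change. With TMM factors the other 2 TRAF members, TRAF3 and TRAF7, were called lower. In the BAG family, regulators of HSP70, 5 of 5 were higher at 5 h, and BAG4 and BAG5 were late. In the SOX family 8 of 9 were higher, and SOX9 and SOX10 were late (2.15% of all genes were late). The BAG and SOX families were also looked up after values of members were seen, so their counts follow in part from that choice.

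The largest list was that of 361 tested ZNF genes, which encode mostly C2H2 zinc finger factors. At 5 h 196 were higher (54.3%, beside 19.8% of all genes) and 1 was lower, with a median of 1.03. At 3 h 141 were higher with a median of 0.70, where 13.4% of all genes were higher. Of 379 ZNF genes tested for the change 13 were late, beside 2.15% of all genes, and 6 of the 13 (ZNF121, ZNF346, ZNF561, ZNF581, ZNF586 and ZNF770) lost the call without any 1 of 8 to 13 libraries. The largest differences at 5 h among the 13 were those of ZNF503 (2.35 to 3.94) and ZNF703 (1.43 to 3.39), both of which are transcriptional repressors. With TMM factors 172 ZNF genes were higher and 2 lower, beside 2027 and 1097 of all genes.

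Cell cycle lists had lower medians. Of 37 genes of mitosis and G2/M 18 were higher at 5 h and 12 at 3 h, beside 19.8% and 13.4% of all genes, with medians of 0.28 and 0.15. These 37 and the 40 genes of replication and repair held 2 late mRNAs each, beside 2.15% of all genes. HJURP, the chaperone that deposits the centromeric histone CENP-A, was late (1.35 to 2.30, a change of 0.95 ± 0.14), as was CDCA8 (borealin, 0.44 to 1.00), whose call was lost without siGL2 T replicate 2 at 3 h (0.48, adjusted p = 0.0584) or siGL2 TCHX replicate 1 at 3 h (0.49, adjusted p = 0.0528). In DNA replication and repair 17 of 40 genes were higher at 5 h and 6 at 3 h, with BLM, the Bloom syndrome helicase, late (0.35 to 1.18) and RFC4, a clamp loader subunit, at 0.23 and 0.75. The late call of RFC4 was lost without any 1 of 8 libraries, with 0.46 (adjusted p = 0.102) without pQ TCHX replicate 2 at 5 h. AMD1, which makes decarboxylated S-adenosylmethionine for polyamine synthesis, was late (1.02 to 1.90) and was the 1 polyamine gene of 11 called. With TMM factors 13 mitotic genes were higher and 1 lower, 13 replication genes higher and 3 lower, and 1 polyamine gene higher and 3 lower.

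Ribosome assembly factors were looked up after late members had been seen. Of 100 tested, 51 were higher at 5 h (51.0%, beside 19.8% of all genes) and 0 were lower in edgeR with stable genes, whereas TMM gave 38 higher and 5 lower. The 13 late members (2.15% of all genes were late) are BYSL, CEBPZ, GRWD1, MPHOSPH10, NGDN, NIFK, NOP2, NOP16, POLR1B, PPAN, RRP8, RRS1 and WDR43, most of them factors of the small and large subunit processing complexes. The call was lost without any 1 of 12 libraries for NOP16 and of 5 for GRWD1. PPAN went from 1.22 to 2.68, RRS1 from 1.11 to 2.37 and NOP2, an rRNA methyltransferase, from 0.85 to 1.65. POLR1B, the second-largest subunit of RNA polymerase I, went from 0.34 to 0.89. The mRNAs of the products, the 74 cytosolic ribosomal proteins, had a median of −0.11 with 0 higher and 2 lower. With TMM factors, which called 1097 genes lower in all, 68 of the 74 were called lower at a median of −0.23. The number called lower thus depends on the scale. Relative to the median of all genes they were at −0.21 on both scales.

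Of 12 tested nonsense-mediated decay factors 8 were higher at 5 h and 8 at 3 h, with medians of 0.47 and 0.44, and 0 were late. Over all genes, beside which this list and the next 3 stand, 19.8% were higher at 5 h and 13.4% at 3 h. At 5 h 1.41% of all genes were lower, and 2.15% were late. SMG9 (1.16 at 3 h and 2.04 at 5 h) and SMG8 (0.81 and 1.38), which together restrain the kinase SMG1, were highest. Among 16 SR proteins and CLK kinases 10 were higher at 5 h and 3 at 3 h, with CLK4 (2.80) and CLK1 (2.03) highest and SRSF4 late (0.26 to 0.79). Of 21 snoRNA host genes, whose spliced RNAs are known substrates of nonsense-mediated decay, 9 were higher at 5 h, and SNHG7 was late (2.01 to 2.89). With TMM factors 5 of the 21 were higher and 5 lower. Of 21 deadenylation and decapping factors 8 were higher and 1 was lower. TMM left the SR and CLK list with 6 higher, the nonsense-mediated decay factors with 8, and the deadenylation list with 7 higher and 3 lower.

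Tubulin mRNAs and TTC5 had 0 of 11 higher and 6 lower at 5 h (7 lower with TMM), with TUBB6 (−0.47) and TUBB4B (−0.46) lowest, and none was called at 3 h. Over all genes 19.8% were higher and 1.41% lower at 5 h. Tubulin mRNAs are degraded on the ribosome when free tubulin accumulates, with TTC5 as the recognition factor. Respiratory chain subunits had 1 of 70 higher and 0 lower, at a median of −0.10, but 38 lower with TMM factors, which called 1097 genes lower in all. Mitochondrial ribosomal proteins had 12 of 72 higher and 1 lower, or 6 and 3 with TMM, with MRPS31 late (0.38 to 1.11). Of 18 ER chaperones and unfolded protein response genes 4 were higher, XBP1 among them, and TMM gave 2 higher and 5 lower. Beside 19.8% of all genes, the counts of genes higher were 6 of 17 for GADD45 and p53 targets, 2 of 14 for ribosome quality control, where PELO, which rescues stalled ribosomes, was at 2.37, 2 of 17 for selenoproteins (1 higher and 3 lower with TMM), 3 of 20 for cholesterol and fatty acid synthesis and 5 of 33 for replication-dependent histones. In 4 lists the median changed sign with TMM, from 0.08 to −0.04 for mitochondrial ribosomal proteins, from 0.08 to −0.04 for cholesterol genes, from 0.04 to −0.09 for ribosome quality control and from 0.04 to −0.08 for polyamine genes.

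Of the 10 genes with the largest differences at 5 h, named among those with at least 50 counts and the same sign in all 4 pairs, most were not late. CSRNP1, an immediate early nuclear factor, had 2, 0, 0 and 0 reads in T and 101, 40, 52 and 33 in TCHX libraries, with a fitted difference of 6.28 that depends on how zeros are treated and 3.89 at 3 h. GADD45B, a stress sensor that activates MAP3K4, had 5.44 at 5 h and 4.39 at 3 h. KLHL25 (5.36 and 2.82), RGS3 (5.20 and 2.77) and ADM (adrenomedullin, 4.82 and 4.09) were also called at both times, with no called change between them. A missing call is not a change of 0. The fitted change was 2.52 ± 0.74 for KLHL25 (edgeR adjusted p = 0.0712), 2.43 ± 0.74 for RGS3 (0.0900) and 2.36 ± 0.97 for CSRNP1 (0.299). For ADM it was 0.72 ± 0.44 and for GADD45B 1.04 ± 0.72. GADD45B and ADM were already at 3.43% and 3.72% of their 0 h level in T cells at 3 h. CCDC174 was among the 10 largest and late (2.39 to 4.52, a change of 2.13 ± 0.39). SURF6_1, again a copy name, had the largest value of the 10, 6.29 ± 1.18, which rests on the siGL2 TCHX replicate 1 library at 440.2 normalised counts, since the other 3 TCHX libraries were at 3.5 to 13.4; without it the difference was 2.44 (adjusted p = 0.195).

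Some retained mRNAs had lost ground by 5 h. IER5, an immediate early regulator of heat shock factor HSF1, was at 2.0, 25.2, 23.8 and 36.3 in T and 146.6, 208.3, 207.0 and 255.0 in TCHX libraries at 3 h. At 5 h it was at 21.7, 30.4, 30.2 and 14.1 in T and 27.3, 31.4, 41.8 and 52.2 in TCHX libraries. The arms were apart at 3 h and overlapped at 5 h, and the difference went from 3.28 to 0.63 ± 0.35 (adjusted p = 0.254), a change of −2.65 ± 0.49 (adjusted p = 0.00148). IER2 went from 2.91 to 1.61, a change of −1.29 ± 0.27. The number of genes with a smaller difference at 5 h was 17 rather than 26 without pQ T replicate 1 at 3 h.

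The genes lower in the TCHX arm at 5 h include heat shock chaperones. HSPA8, the constitutive HSP70, was at 5484.2, 4336.3, 6181.5 and 5415.5 in T and 1094.2, 1531.4, 1953.4 and 2217.9 in TCHX libraries. Its difference was −0.50 on the log2 scale at 3 h and −1.69 ± 0.11 at 5 h (adjusted p = 1.7e-10). HSPA2, a relative of HSPA8 known from testis, was at 67.1, 60.9, 114.8 and 61.9 in T and 1.3, 3.1, 14.9 and 27.1 in TCHX libraries, a difference of −2.96 ± 0.44. MAST2, a microtubule-associated kinase, was at 472.9, 418.1, 391.7 and 386.4 in T and 121.6, 131.0, 87.3 and 84.9 in TCHX libraries. For MAST2 the T arm was level and the TCHX arm dropped, from −0.41 (adjusted p = 0.0504) at 3 h to −1.99 ± 0.13 at 5 h, a change of −1.58 ± 0.20 (adjusted p = 1.05e-05). LGR4, a receptor for R-spondins, was at −1.72. TRNE, a name used for mitochondrial tRNA genes, was at −2.22 and is uncertain in a polyadenylated RNA library. For HSPA2 the change from 3 h to 5 h of −1.78 (adjusted p = 0.0423) was lost without any 1 of 11 libraries, with −1.38 (adjusted p = 0.101) without siGL2 TCHX replicate 1 at 5 h.

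Few genes differed between the 2 control states. A test of pQ minus siGL2 in the TCHX minus T difference at 5 h called 2 of 13052 genes (0.0153%) with a more positive difference in pQ and 0 with a more negative one, beside 388 and 258 at an unadjusted p under 0.05. DESeq2 called 16 genes with its own size factors and 12 with stable-gene factors. RPL22L1, a paralog of the ribosomal protein RPL22, was at 8313.6 and 7438.7 in siGL2 T and 1643.0 and 1991.6 in siGL2 TCHX libraries. In pQ cells it was at 11426.0 and 9219.0 in T and 5591.4 and 5458.3 in TCHX libraries. The TCHX libraries were below the T libraries in both states, further so in siGL2 cells, and the difference between states was 1.22 ± 0.17 (adjusted p = 0.00607). B4GALT5, a galactosyltransferase of lactosylceramide synthesis, was at 239.6 and 237.3 in T and 48.1 and 47.2 in TCHX libraries of siGL2 cells, and at 365.3 and 384.7 and at 294.1 and 220.0 in pQ cells (1.77 ± 0.28, adjusted p = 0.023). Its call was lost without siGL2 TCHX replicate 1 (1.79, adjusted p = 0.13), pQ T replicate 1 (1.74, 0.14), pQ TCHX replicate 1 (1.55, 0.14) or pQ T replicate 2 (1.81, 0.0741). Neither gene was late, and leaving out 1 library moved the number of genes called to between 1 and 10. Within each state, 59 mRNAs were late in siGL2 cells alone and 94 in pQ cells alone, with 2 libraries per group.

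Libraries that did not choose the late class gave the same sign for most of it. In replicate 3, taken alone and with no test, the change from 3 h to 5 h was above 0 for 236 of the 291 late mRNAs in siGL2 cells (81.1%, beside 40.3% of all genes) and for 259 in pQ cells (89.0%, beside 53.2%). The medians were 0.44 and 0.68, against 0.88 to 1.06 in the replicates that chose them. TRAF6 went the other way in replicate 3, at −0.93 in siGL2 and −0.82 in pQ cells, whereas FADD was at 1.55 and 1.52 and SOX10 at 1.47 and 1.12. RAB20 and TIFA were each below 0 in 1 state, at −0.11 in siGL2 and −0.71 in pQ cells.

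**Figure D4:**
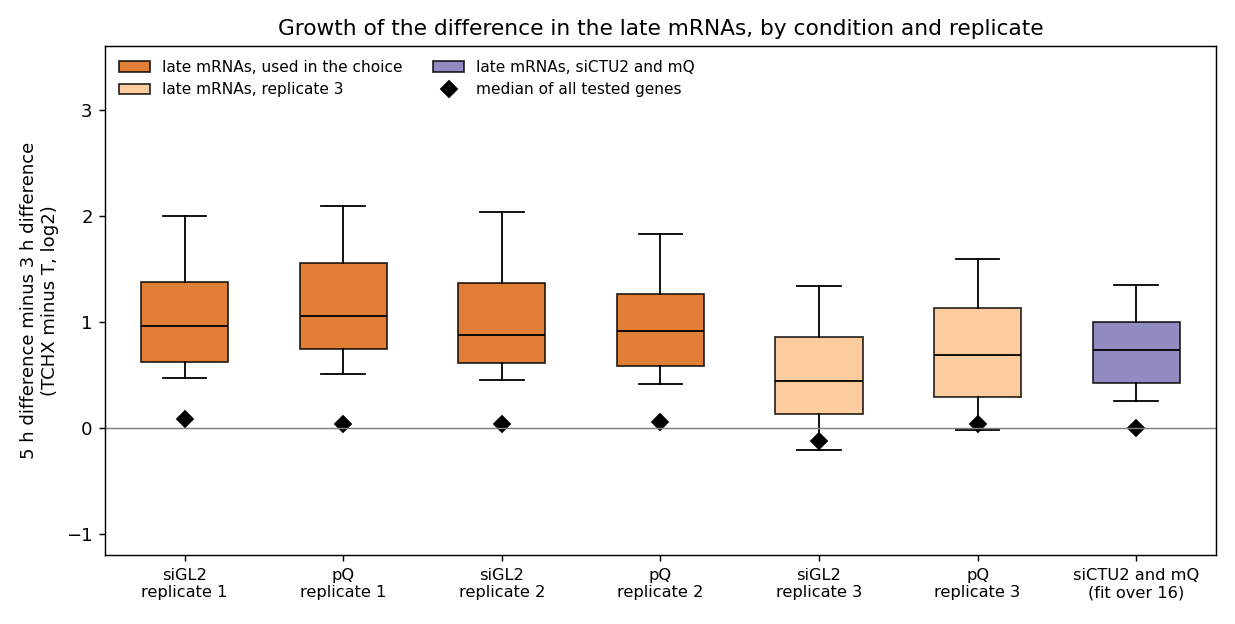
Change of the TCHX minus T difference from 3 h to 5 h (vertical axis, log2) for each late mRNA. Each box of a control state and replicate covers 291 mRNAs, with the median as a line, from normalised counts with 1 added. The last box holds the changes fitted by edgeR over 16 libraries of siCTU2 and mQ cells, for the 290 late mRNAs tested there. Replicates 1 and 2, which chose the class, have medians of 0.88 to 1.06, and replicate 3, which did not, has 0.44 in siGL2 and 0.68 in pQ cells.

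In siCTU2 and mQ cells, a separate set of 16 libraries, 279 of the 290 late mRNAs tested had a positive change (96.2%, beside 49.8% of all 13219 genes), with a median of 0.73 beside 0. The same test called 34 of the 290 (11.7%) there, where 47 of 13829 genes were called in all (0.34%). Among the 34 were SOX10 (1.31, adjusted p = 0.0063), POP7 (1.49, adjusted p = 0.039), DUSP4 (1.36), TRIM11 (1.74), BAG5 (1.29) and BTG1 (1.35). All 10 named late mRNAs had a positive change there and 0 passed the adjusted threshold of edgeR, with 7 at an unadjusted p under 0.05. Leaving out replicate 1 gave 1 call and leaving out replicate 2 gave 16, so the count depends on both. At 5 h 280 of the late mRNAs were higher in the TCHX arm of these cells, where 19.3% of all genes were.

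In the median, late mRNAs differed from other genes in features that the definition did not use, given here as a description with no test. Their median level at 0 h was 529.9 normalised counts, beside 357.4 for mRNAs higher at both times and 253.5 for all genes. For genes lower at 5 h it was 716.4. The part of abundance in these features was not tested. Coding features were available for 275 of the 291 late mRNAs (94.5%) and 85.5% of all tested genes. Late mRNAs had a median of 5 exons, against 7 for the mRNAs higher at both times and 9 for all genes. At most 3 exons were present in 34.5% of late mRNAs, 23.1% of those higher at both times and 12.3% of all. Their median coding length was 1308 bases, against 1638 for those higher at both times and 1416 for all, and their 3′ UTR was 1183 bases long, against 1512 and 1403. The share of genes higher at 5 h fell with exon number, from 42.2% of single-exon genes to 14.9% of genes with 21 or more, and the late share was largest with 2 exons (8.91%) and smallest with 21 or more (0.38%).

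**Figure D5:**
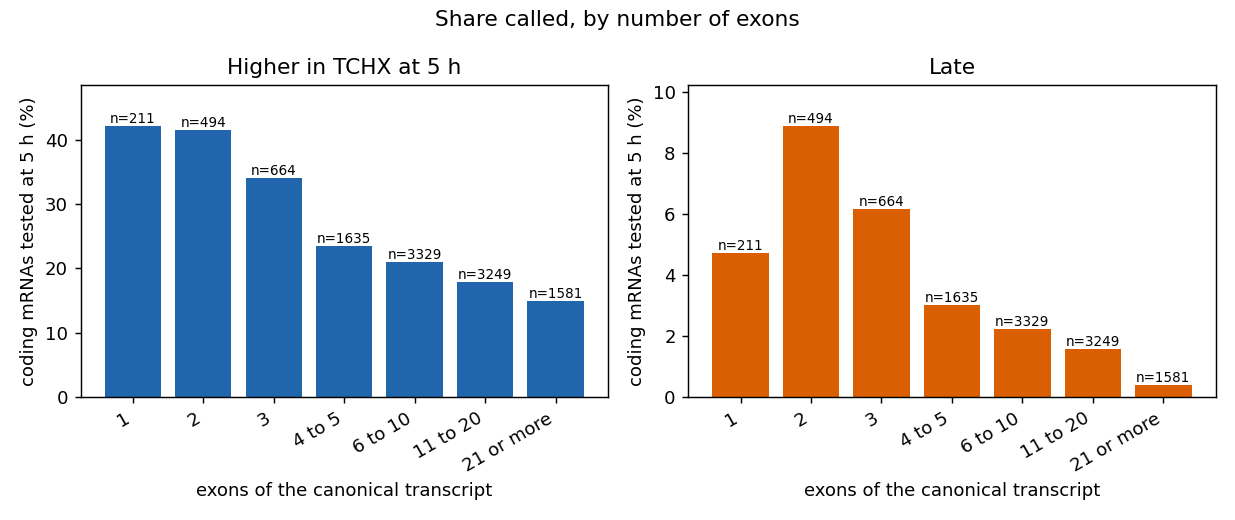
Percent of genes higher in the TCHX arm at 5 h and percent late (vertical axes, percent of tested genes) by the number of exons of the canonical transcript (horizontal axis). Genes higher at 5 h go from 42.2% for 1 exon to 14.9% for 21 or more, and late genes from 8.91% for 2 exons to 0.38%.

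The classes also differed in median base composition. The median share of codons ending in G or C was 65.2% for late mRNAs and 57.2% for those higher at both times. It was 57.6% for genes not called and 63.2% for genes lower at 5 h. The codons AAA, GAA, GAT and AAT made up 7.30% of late coding sequences, against 9.93% of those higher at both times and 9.46% of all. In genes lower at 5 h they made up 7.82%, so neither codon feature was particular to late mRNAs. The pentamer ATTTA, searched on the sense strand of the 3′ UTR, was present in 72.0% of late mRNAs, 82.0% of those higher at both times and 75.1% of all, and TATTTAT, which holds the pentamer, in 33.5%, 42.7% and 37.6%. The shares of late mRNAs with these AU-rich motifs were the lowest of the 3, and their 3′ UTRs were also the shortest in the median. The 10 named mRNAs spanned 44.6% to 80.8% of codons ending in G or C, with 6 above the median of all genes, and 5 had at most 3 exons.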

How the data were processed

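The data are QuantSeq 3′ mRNA-seq counts of cytoplasmic RNA from A375 cells. Raw read counts per gene were deposited. Per the labels and the study's methods, the authors trimmed reads with fastp 0.20.1, mapped the forward reads to GRCh38.p13 with HISAT2 2.2.1 and counted them on exons of the NCBI annotation with htseq-count 0.13.5. The methods name no molecular identifiers, and PCR copies may be among the counts. The RNA was spiked with ERCC standards, and 0 such names are in the table, which lists 44659 gene names, 15166 of them with 0 counts in all libraries. Reads shared by near-identical copies may be split between names. 0 sample columns were left over.

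Counts were analysed with edgeR 4.0.16 in R 4.3.3 (filterByExpr, quasi-likelihood F-test, Benjamini-Hochberg adjustment over all tested genes, threshold 0.05). Each time was fitted on 8 libraries with condition as a block. Late retention was tested on 16 libraries with condition by time as a block. Standard errors were derived from the fitted change and its F value. Libraries were scaled by the median of ratios over 330 stable genes (327 with counts in every library, which entered), which, by a rule that the study states for cells under another treatment and that was carried over here, had a CPM above 0.2 at 0 h and, at 3 h or 5 h, a CPM at least 1.1 times that of 0 h with the 0 h value above 0.1 times the later one, in each arm, control state and replicate used. Totals over all genes are not constant after a transcription block, and the choice of scale moves small differences in all genes together.

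Samples were grouped by their titles. The comparison, members and lists were chosen with earlier results of these data known. Genes were named by a fixed rule, as the late mRNAs with the largest change (up to 10, higher in all 4 pairs, mean of at least 50 counts), the largest rises and falls at 5 h (up to 10 and 5), the largest decreases from 3 h to 5 h (up to 5), and members of the lists that were late or had extreme values. Late mRNAs named outside this rule (such as SOX10, POP7, FZR1 and the members of gene families), the test against 5/3 and the values of replicate 3 alone were chosen after the values were seen. 1 gene that the rule names is not reported here. A list of mitochondrially encoded mRNAs had 0 tested members. The fits were run on simulated counts with known changes, with the same dispersion for every gene, library totals as the scale and no filter. That simulation does not cover stable-gene scaling, the filter or noise that differs between genes.

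Alternatives were TMM and total scaling, other stable genes, DESeq2 1.42.0, no filter, a replicate block, replicate 3 put back, each replicate or library left out, and a test against a fold change of 1.5. Exon numbers, coding sequences and 3′ UTRs come from GENCODE v44 canonical transcripts on GRCh38, matched by symbol.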

Additional observations from a re-analysis of the deposited data

Results flagged for a closer look

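The change from 3 h to 5 h in the TCHX minus T difference was itself tested, and 291 mRNAs were called late because it was positive and past the threshold. For 26 genes the change was negative and past the threshold of the same test. Among them, IER5 and IER2 had a smaller positive difference at 5 h than at 3 h, and HSPA2 and MAST2 a more negative one. Between the control states, RPL22L1 (1.22) and B4GALT5 (1.77) had a TCHX minus T difference at 5 h that was more positive in pQ than in siGL2 cells on the log2 scale. With replicate 3 put back, the adjusted p of both was 1.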

How the results depend on the processing

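All 291 late mRNAs kept a positive change from 3 h to 5 h under every alternative in which they were tested. These alternatives refit libraries that had chosen the class for a positive change, so this sign was largely fixed in advance. No single gene checked by name reversed, whereas the medians of some lists changed sign with TMM factors, as given above. In replicate 3 alone the change was above 0 for 236 of the 291 in siGL2 cells and for 259 in pQ cells. The late number was 270 with TMM, 338 with library totals, 259 with other stable genes, 344 and 407 with DESeq2 (own and stable-gene size factors), 361 without a filter and 427 in one fit over 0, 3 and 5 h. It was 103 with replicate 3 put back (96 of them among the 291), 50 against a fold change of 1.5, 59 in siGL2 alone, 94 in pQ alone, 52 if a call at 3 h excludes an mRNA, 2 against 5/3 of the 3 h difference, and 144 to 297 with a replicate or library left out. Differences between replicates 1 and 2 in the T arm and in the TCHX arm correlated over genes with r from 0.013 to 0.079. Count noise in low genes pulls such an r toward 0, so it does not settle whether the numbers pair the samples. With a replicate block 276 of the 291 were late, and 19 rather than 2 genes differed between pQ and siGL2.

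Genes higher at 5 h were 1543 with replicate 3 put back, 985 against a fold change of 1.5, 1570 in siGL2 alone and 1689 in pQ alone, and 1611 to 2445 with a replicate or library left out. Genes higher at 3 h were 394 against that fold and 963 to 1671. Genes lower at 5 h were 1097 with TMM, 1565 with DESeq2's own factors, 47 with replicate 3 put back, 24 against the fold, 121 in siGL2 alone, 91 in pQ alone, 282 in one fit and 133 to 238. Genes lower at 3 h were 400 with TMM, 132 with totals, 644 with DESeq2's own factors, 99 without a filter, 2 against the fold and 27 to 148. Genes with a smaller difference at 5 h were 62 and 48 with DESeq2 (own and stable-gene factors), 57 without a filter, 6 with replicate 3 put back, 5 against the fold, 9 in siGL2 alone, 13 in pQ alone, 47 in one fit and 17 to 31. Genes that differed between pQ and siGL2 were 4 with other stable genes, 16 and 12 with DESeq2, 40 without a filter, 0 with replicate 3 put back, 17 in one fit and 1 to 10; leaving out a whole replicate left no residual degrees of freedom there. Late mRNAs called in siCTU2 and mQ cells were 55 with totals and 1 to 16 with a replicate left out. The cause was not tested.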
